A study of Mus musculus with 7 samples.

Results

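The cytochrome P450 genes of families 1 to 4 encode the haem enzymes that carry most drug and foreign compound oxidation in the liver. The members were the protein-coding genes named Cyp with a family number from 1 to 4, a subfamily letter and a gene number, that had at least 1 count in any library. These were 37 of 75 such genes listed, and of 26086 genes with a count in all. Cyp4a12a and Cyp4a12b had counts but carry a longer name and were left out. The libraries came from precision-cut liver slices (PCLS) of adult male Balb/c mice, 250 µm thick and 3 mm wide, collected after 3 days of culture. The 3 CTR libraries were from regular medium and the 4 VPA libraries from medium with 2.5 mM valproic acid, an inhibitor of class I histone deacetylases. The study's methods define a biological repeat as a separate liver, but the labels do not tie each library to a mouse, so the p-values measure the spread between these libraries, whatever its source.

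P450 enzymes insert oxygen into drugs, steroids, bile acids and fatty acids, with electrons passed on by the reductase Por. Their transcription is switched by ligand-activated receptors: AHR induces Cyp1 genes, CAR and PXR induce Cyp2b, Cyp2c and Cyp3a genes, and PPARA induces Cyp4a genes. Hepatocytes are the main source of these enzymes in the liver, many of them around the central vein, and hepatocytes taken into culture are known to lose them.

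No member passed the test across all genes (edgeR's quasi-likelihood test with Benjamini-Hochberg adjustment), in which 1 gene of 10876 was higher with VPA (0.00919%) and none was lower (0.0%). DESeq2 called 1 member lower, Cyp2a5, beside 115 of its 15261 genes (0.754%). Cyp2a5 had counts in all 3 CTR libraries and none in any of the 4 VPA libraries, as did 1.15% of all genes with a count. Only 1 tested member, the drug-oxidizing Cyp3a11, was higher in every VPA library than in every CTR library, as were 4.44% of all tested genes, and its groups overlapped with library totals alone in place of TMM scaling. Of the classical inducible P450 genes, 1 of 6 CAR-responsive and 0 of 4 PPARA-responsive genes had counts. So did 3 of 3 AHR-responsive and 2 of 3 PXR-responsive genes, beside 37 of 75 genes of the family.

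The promoters of the genes these results turn on are printed first, as the 250 bases before the RefSeq start on GRCm38.p6, each 5′ to 3′ on the gene's strand. Starts in the GENCODE annotation can differ from these. Cyp2a5 (chr7:26835089-26835338, plus strand) is shown beside its near copy Cyp2a4 (chr7:26306942-26307191, plus strand) because only the former was counted in every CTR library. Their promoters were identical at 245 of 249 aligned bases (98.4%), and capitals mark the 4 bases that differ.
Cyp2a5: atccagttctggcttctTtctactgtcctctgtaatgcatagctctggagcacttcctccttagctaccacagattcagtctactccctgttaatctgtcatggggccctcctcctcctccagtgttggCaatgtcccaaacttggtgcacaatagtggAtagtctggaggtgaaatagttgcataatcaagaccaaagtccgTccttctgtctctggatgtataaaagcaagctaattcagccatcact
Cyp2a4: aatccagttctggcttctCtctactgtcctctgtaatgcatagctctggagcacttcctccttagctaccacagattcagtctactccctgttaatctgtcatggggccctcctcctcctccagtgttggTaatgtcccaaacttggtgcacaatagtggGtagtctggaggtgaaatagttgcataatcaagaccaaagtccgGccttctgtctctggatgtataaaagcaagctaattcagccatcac
The promoter of Cyp3a11 (chr5:145879855-145880104, minus strand) is shown because this gene was the member higher in every VPA library, and capitals mark AGGTCA and CAAAGTCC.
Cyp3a11: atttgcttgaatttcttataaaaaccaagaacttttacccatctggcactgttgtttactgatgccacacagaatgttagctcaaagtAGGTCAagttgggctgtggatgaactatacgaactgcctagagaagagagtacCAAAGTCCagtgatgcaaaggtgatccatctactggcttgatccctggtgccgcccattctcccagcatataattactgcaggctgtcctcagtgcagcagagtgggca
The neighbours Cyp1a1 (chr9:57697363-57697612, plus strand) and Cyp1a2 (chr9:57683656-57683905, minus strand) are the classical AHR targets, and capitals mark GCGTG.
Cyp1a1: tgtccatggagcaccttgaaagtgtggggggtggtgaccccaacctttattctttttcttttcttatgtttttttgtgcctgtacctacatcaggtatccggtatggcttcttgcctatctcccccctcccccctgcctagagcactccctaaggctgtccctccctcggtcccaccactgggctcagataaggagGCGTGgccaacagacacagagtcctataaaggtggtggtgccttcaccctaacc
Cyp1a2: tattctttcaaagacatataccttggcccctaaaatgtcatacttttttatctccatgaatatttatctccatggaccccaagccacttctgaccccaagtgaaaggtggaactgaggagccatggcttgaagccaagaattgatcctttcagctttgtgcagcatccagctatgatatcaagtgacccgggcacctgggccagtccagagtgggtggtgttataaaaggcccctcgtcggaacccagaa

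Both strands were searched for these letters in the 33 members with a promoter in the table, and in all 27025 promoters of the same length. GCGTG, the core of the AHR element, was in 7 members (21.2%) and in 28.2% of all promoters. AGGTCA, a half-site of nuclear receptors such as PXR and CAR, was in 8 members (24.2%) and in 13.8% of all promoters. CAAAGTCC, a core of the sites of the hepatocyte factor HNF4A, was in 7 members (21.2%), namely Cyp2a4, Cyp2a5, Cyp2c40, Cyp2c67, Cyp2c68, Cyp2c70 and Cyp3a11, and in 1.22% of all promoters. TATAAA was in 16 members (48.5%) and in 13.0% of all promoters. The motifs were chosen after the results were seen, several of these promoters are near copies of each other, and a match is not evidence of binding. No motif contains another, and Cyp1a2 holds no GCGTG in this window.

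The libraries held between 1400887 and 4773750 counts. Levels are counts scaled to a common library size (CPM, with TMM factors), and because the reads come from the 3′ ends of transcripts, they do not grow with transcript length. A library without a count allows up to 3 counts, or 0.591 to 2.41 CPM depending on its depth, for counting error only. Bulk RNA cannot tell fewer hepatocytes from less RNA per hepatocyte. The summed level of 15 hepatocyte markers was 10389 to 24284 CPM in CTR and 7049 to 20831 CPM in VPA, with Trf the most abundant, and none of the 13 tested passed an unadjusted p of 0.05. Of 14 stellate cell markers, 5 were lower at that threshold (Col1a1, Col1a2, Col3a1, Vim and Sparc, the most abundant), beside 4.62% of all tested genes, with sums of 3979 to 7043 CPM in CTR and 2591 to 4497 CPM in VPA. The endothelial list (most abundant Kdr) had none past it among 8 tested, with sums of 399.9 to 464 CPM in CTR and 123 to 347 CPM in VPA, which did not overlap, and Clec4g at 0 in every CTR library. The macrophage list (most abundant Cd68) had none of 6, with sums of 281 to 360 CPM in CTR and 312 to 440 CPM in VPA, and with Adgre1 and Marco at 0 in every library. The cholangiocyte list had 1 of 5, Cldn4, which was lower, while its most abundant gene was Spp1, with sums of 439 to 720 CPM in CTR and 276 to 786 CPM in VPA. The part of these differences in the P450 levels was not tested.

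The P450 genes made up a small part of the RNA in both groups. All 37 members together took between 0.0271% and 0.0551% of the counts of a library. Their summed level was 343, 404 and 496 CPM in the CTR libraries and 545, 429, 515 and 297 CPM in the VPA libraries, a mean of 415 ± 77.0 (SD, n = 3) against 447 ± 111 (SD, n = 4). The ranges overlapped, and both the highest and the lowest sum belonged to VPA libraries. The most abundant member, Cyp1a2, ranked only 2679th among genes by mean level. The 5 most abundant members held 43.3% of the summed CTR mean and 44.4% of the summed VPA mean.

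**Figure D1:**
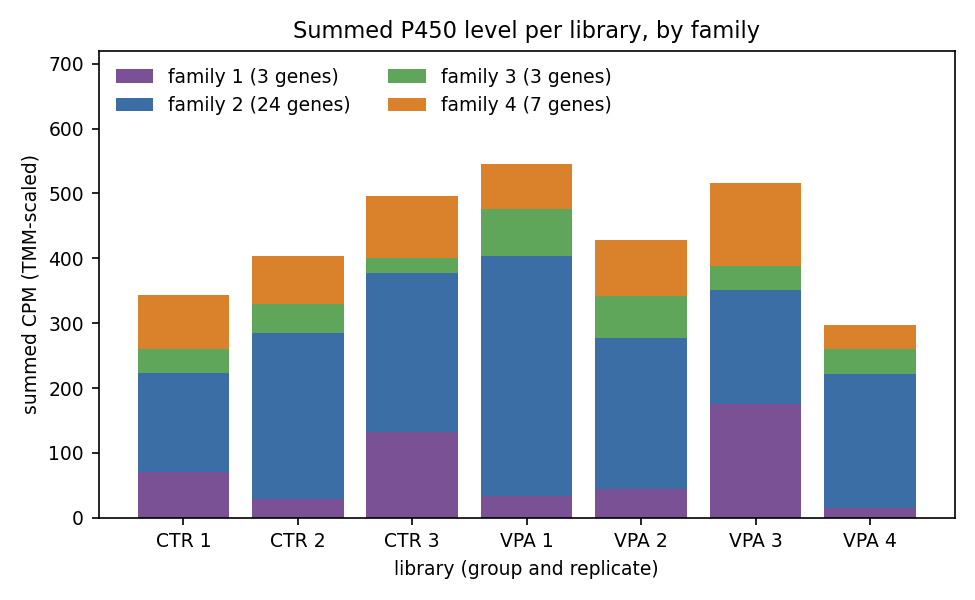
Summed CPM (vertical axis, after TMM scaling) of the 37 members in each of the 3 CTR and 4 VPA libraries (horizontal axis), stacked by P450 family. Family 2 made the largest block in every library, in VPA replicate 3 with 176 CPM beside 175 CPM of family 1, and the totals of the groups overlapped.

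None of the 4 families separated the groups. Family 1 was 76.8 ± 51.8 CPM in CTR and 67.4 ± 72.7 CPM in VPA. Family 2 was 218 ± 57.1 CPM in CTR and 246 ± 85.5 CPM in VPA. Both had standard deviations larger than the difference of the means. Family 3 was 35.1 ± 10.6 CPM in CTR and 52.8 ± 18.1 CPM in VPA. Family 4 was 84.6 ± 9.81 CPM in CTR and 80.2 ± 37.7 CPM in VPA. In each family the libraries of the groups overlapped. Among subfamilies with several members, Cyp2a separated the groups, with 22.9, 25.4 and 31.8 CPM in CTR and 17.0, 0, 0.803 and 7.55 CPM in VPA. This sum includes Cyp2a5, at 20.9, 8.48 and 14.3 CPM in CTR and 0 in every VPA library. Each of the other Cyp2a genes (Cyp2a4, Cyp2a12 and Cyp2a22) overlapped between the groups, so the separation is no result apart from Cyp2a5. Cyp2d, the relatives of human CYP2D6, had 43.7, 89.3 and 93.7 CPM in CTR and 109, 92.2, 89.1 and 99.7 CPM in VPA, which overlapped.

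Many CAR-induced, PPARA-induced and female-biased genes were without counts, as were 38 of the 75 genes that match the rule. All 3 AHR-responsive genes and 2 of 3 PXR-responsive genes had counts. No gene of the Cyp4a subfamily named by this rule was counted in any library, so the PPARA-induced fatty acid hydroxylases Cyp4a10, Cyp4a14, Cyp4a31 and Cyp4a32 were all at 0. Of 6 CAR-induced genes only Cyp2c29 was counted, Cyp2c37, Cyp2c50, Cyp2c54 and Cyp2c55 had no count, and Cyp2b10, the standard reporter of CAR activity, was at 0 in all 7 libraries. Of 6 genes that are higher in female liver, Cyp2a4 and Cyp2b13 had 3 counts each in all, and Cyp2b9, Cyp2c69, Cyp3a16 and Cyp3a44 had none. Of the male-biased Cyp2d9, a testosterone hydroxylase, every library held at least 38 counts.

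**Figure D2:**
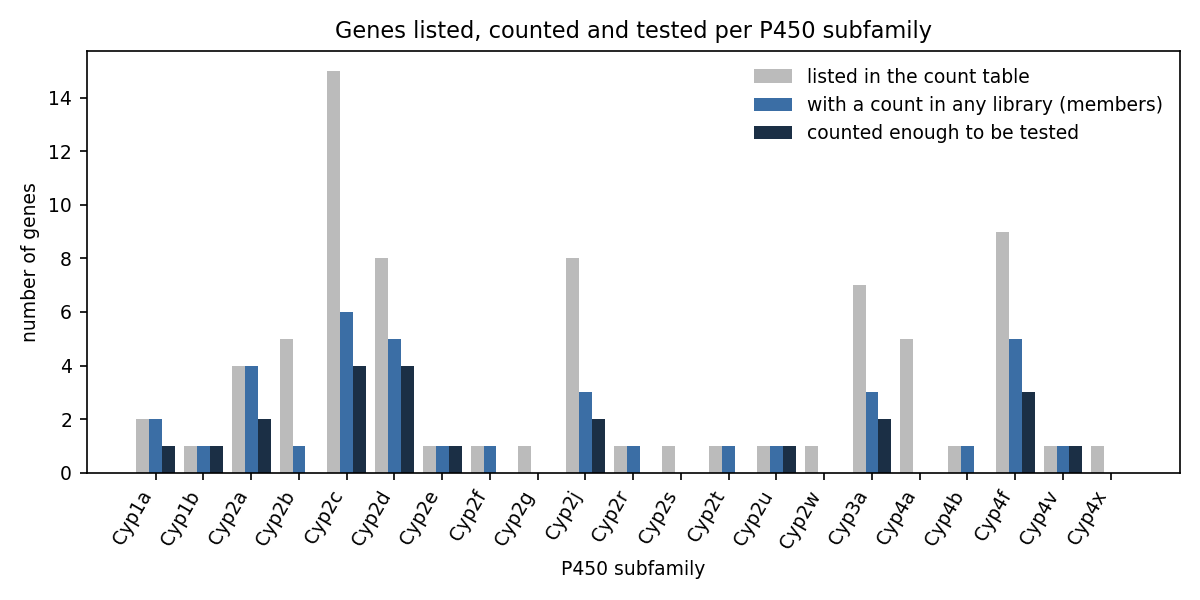
Number of genes (vertical axis) in each P450 subfamily (horizontal axis) that the table lists, that had a count in any library and that were counted enough to be tested. All 4 Cyp2a genes were counted, against 6 of 15 Cyp2c, 1 of 5 Cyp2b and 0 of 5 Cyp4a genes.

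Counting also varied within the gene clusters. The Cyp2c cluster on chromosome 19 (39007019 to 40187333, GRCm38) lists 14 genes, of which 5 had counts. In the cluster of Cyp2a, Cyp2b and neighbouring subfamilies on chromosome 7 (25802475 to 27158668), 7 of 13 had counts. On chromosome 4, the Cyp4a, Cyp4b and Cyp4x cluster (115106323 to 115647723) had counts for Cyp4b1 alone among the 7 genes named by the rule, which leave out Cyp4a12a and Cyp4a12b. The Cyp2d cluster on chromosome 15 had 5 of 8, the Cyp4f cluster on chromosome 17 had 5 of 8, the Cyp2j cluster on chromosome 4 had 3 of 8 and the main Cyp3a cluster on chromosome 5 had 2 of 6.

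Near-identical copies can share reads, and how reads with several matches were counted is not given in the sources used here. In the last 500 bases of each gene's transcripts, 20 of the 37 members shared at least 1 stretch of 50 bases with another gene, and so did 21 of the 38 genes without a count. More than 20% of the stretches were shared in 8 members and in 9 genes without a count. Among members the share was highest for Cyp2c40 (74.3%), then for the pair Cyp2c67 and Cyp2c68 (51.2% each), Cyp2a4 (44.3%), Cyp2d40 (33.5%), Cyp2d26 (25.7%), Cyp2d9 (23.9%) and Cyp2d10 (21.7%). Among the genes at 0 named above, it was 66.7% for Cyp4a32, 38.4% for Cyp2c69, 35.3% for Cyp3a44, 30.4% for Cyp2c37, 27.5% for Cyp2c50 and 27.1% for Cyp2c54, but 7.54% for Cyp2b10 and none for Cyp4a14, Cyp2b9 and Cyp2c55. Levels and zeros of the genes with large shares are uncertain for that reason. Cyp2a5 shared 12.4% and Cyp3a11 shared 0.443%, while Cyp1a2 and Cyp2c29 shared none.

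The number of members with a count was 25, 29 and 28 in the CTR libraries and 20, 24, 20 and 18 in the VPA libraries. After thinning every library to the depth of the shallowest, 1400887 counts, the expected numbers were 24.1, 28.4 and 27.8 in CTR and between 18.0 and 23.4 in VPA. Every VPA library thus had fewer members counted than every CTR library, and over all genes the same held at equal depth, with 17170.4 to 17862 genes expected in CTR and 14204 to 16678 in VPA. Only 12 members had a count in every library, and 6 had counts in 1 library alone. All counts lay in CTR for 6 members (Cyp2a4, Cyp2a5, Cyp2c23, Cyp2d40, Cyp2j13 and Cyp2r1), which is 16.2% of them beside 15.4% of all 26086 genes with a count. All counts lay in VPA for 2 members (Cyp2t4 and Cyp4f15), 5.41% beside 8.63% of all genes with a count.

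Counts were also uneven between libraries of the same group. For 13 of the 37 members, a library at 0 stood beside a library of the same group with at least 20 counts. Cyp2f2, which oxidizes naphthalene and is known from periportal hepatocytes, had 70 counts in CTR replicate 2 and 80 in VPA replicate 1, and none elsewhere. Among the 22 tested members, 7 were uneven in this way (31.8%), beside 26.4% of the 8007 tested genes in the same range of mean level, 4.74 to 61.1 CPM. The libraries have no molecular identifiers, so copies of 1 molecule made by PCR count as separate reads.

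**Figure D3:**
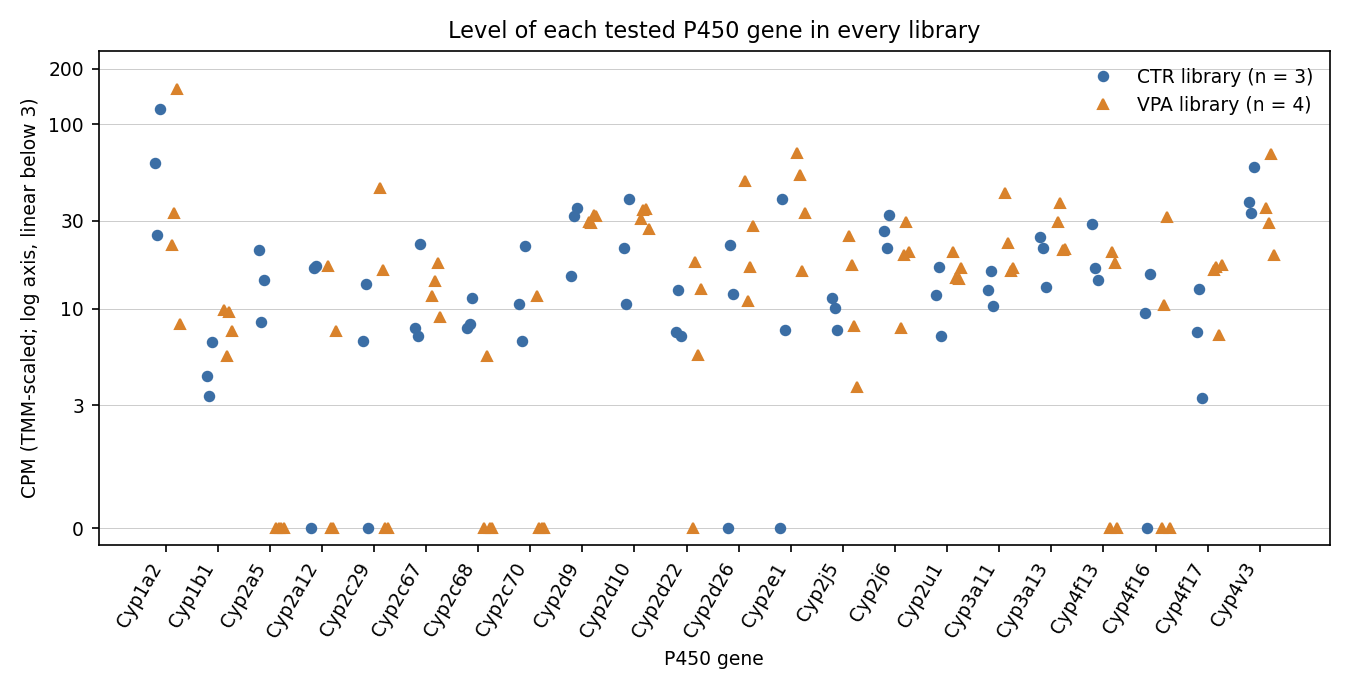
CPM (vertical axis, log scale above 3 and linear below) of each of the 22 tested members (horizontal axis) in the 3 CTR libraries (circles) and 4 VPA libraries (triangles). Cyp2a5 is at 0 in all VPA libraries, Cyp3a11 is higher in each of them than in any CTR library with TMM scaling but not with library totals alone, and zeros beside well-counted libraries recur in other genes.

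Of the 37 members, 22 were counted enough to be tested and 15 were not. A member that was counted in only 1 group could pass this filter through that group, so the tested members are not the whole family. Of the 22 tested, 14 had a log2 fold change (VPA over CTR) above 0 and 8 below, with a median of 0.26 on the log2 scale, the same with Cyp2a5 at its bound. Over all tested genes 45.8% lay above 0, with a median of −0.06. At an unadjusted p of 0.05, no tested member was higher, beside 397 of 10876 genes (3.65%), and 1 was lower, beside 503 genes (4.62%). Groups did not overlap for 1 member that was higher, beside 483 genes (4.44%), and for 2 that were lower, beside 806 genes (7.41%). These counts are close to the background. The standard errors of the log2 fold changes had a median of 0.816 and ran from 0.338 to 1.92, and for 15 of the 22 members the SE was above 0.5, so that a 2-fold change was not detectable beyond 2 SE. In 20 of the 22 members, leaving out 1 library moved the log2 fold change by over 1.5 times. Values near 0, such as 0.01 for Cyp2d22, meet this ratio easily. The share over all tested genes was not computed.

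**Figure D4:**
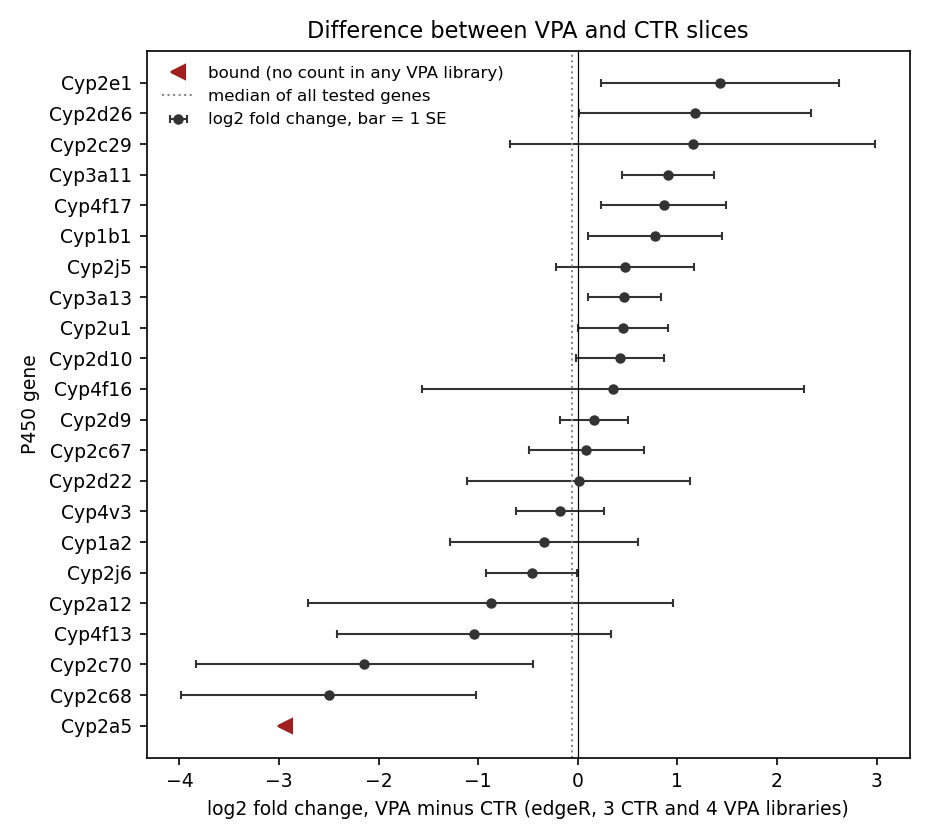
Log2 fold change of VPA over CTR (horizontal axis, bars of 1 standard error) for the 22 tested members (vertical axis), with the median of all tested genes as a dotted line. Cyp2a5 is drawn at its bound of −2.94, since it had no count in any VPA library, and most other bars are wide.

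Cyp2a5, the coumarin and nicotine hydroxylase (ENSMUSG00000005547, chromosome 7, 26835305 to 26843548), had 53, 43 and 26 counts in the CTR libraries and 0 in each VPA library. This corresponds to 20.9, 8.48 and 14.3 CPM in CTR. The mean of 14.5 ± 6.21 CPM (SD, n = 3) was at least 7.70-fold higher than in VPA, taking a floor of 3 counts for each VPA library (1.89 CPM on average). The edgeR test gave an unadjusted p of 0.00190, the 72nd smallest of all genes, and an adjusted p of 0.285. Cyp2a5 passed the count filter through its CTR libraries alone, so this p and rank are no independent support. In DESeq2 the adjusted p was 0.000374. Over the alternative settings tried, the adjusted p outside DESeq2 ran from 0.184 to 0.9996, so DESeq2 was the only one to put it under 0.05.

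The same pattern occurred in other genes. A count in every CTR library and in no VPA library was found for 299 of the 26086 genes with a count (1.15%), among which Cyp2a5 ranked 20th by its CTR mean. The other member with it was Cyp2r1, the main vitamin D hydroxylase of liver, with 2, 7 and 6 counts in CTR, whose mean of 1.82 CPM was under the VPA floor of 1.89 CPM, so that no fold is given. The near copy Cyp2a4 had 3 counts in CTR replicate 1 and none elsewhere. Cyp2a22 had 2, 2 and 1 counts in CTR and 1 count in VPA replicate 3.

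Cyp2a12, a further steroid-oxidizing member of the subfamily, did not separate the groups. It had 0, 84 and 31 counts in CTR and 26, 0, 0 and 10 in VPA, and the log2 fold change was −0.88 (SE 1.84, adjusted p = 0.961 in edgeR), or −2.21 without VPA replicate 1 and −0.43 without VPA replicate 2. The zeros of its VPA replicates 2 and 3 made the Cyp2a sum lowest there.

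Cyp3a11, the mouse gene closest in use to human CYP3A4 and the classical target of PXR (ENSMUSG00000056035, chromosome 5, 145854426 to 145879964), was at 12.6, 15.97 and 10.4 CPM in CTR and at 42.4, 22.8, 16.1 and 16.6 CPM in VPA. Every VPA library lay above every CTR library, by a narrow margin between CTR replicate 2 and VPA replicate 3. The log2 fold change was 0.91 (SE 0.46), or 0.51 without VPA replicate 1, with an unadjusted p of 0.0865 and an adjusted p of 0.687 in edgeR. With library totals alone in place of TMM scaling, CTR replicate 2 (17.3 CPM) stood above VPA replicates 3 and 4 (14.52 and 15.4 CPM), so the groups overlapped. Among genes with at least 10 counts in every library its unadjusted p in edgeR was 0.0394.

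The second PXR-responsive member with counts, Cyp3a13, was at 24.4, 21.5 and 13.2 CPM in CTR and at 29.4, 37.5, 20.9 and 21.1 CPM in VPA, which overlapped (log2 fold change 0.47, SE 0.37). Cyp3a25 had 36 counts in CTR replicate 2 and 15 in VPA replicate 2 and none elsewhere. PXR itself (Nr1i2) had counts in CTR replicate 3 and VPA replicates 3 and 4 only, at 36.2, 20.9 and 15.1 CPM.

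The only CAR-responsive member with counts, Cyp2c29, was at 6.70, 13.6 and 0 CPM in CTR and at 45.05, 16.3, 0 and 0 CPM in VPA. Its log2 fold change of 1.15 had an SE of 1.83 and turned to −0.25 without VPA replicate 1. CAR (Nr1i3) itself had no count in any library.

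Among the AHR-responsive members, Cyp1a2, which oxidizes caffeine and aromatic amines, was the most abundant member. It was at 61.9, 25.2 and 121 CPM in CTR and at 22.2, 33.2, 156 and 8.31 CPM in VPA. The highest library in each group was replicate 3, and both carry the slice culture number 71 in their labels, which do not say what that number marks. The log2 fold change was −0.34 (SE 0.94, adjusted p = 0.968 in edgeR), and without VPA replicate 3 it was −1.67, with an unadjusted p of 0.0484 and an adjusted p of 0.545. Leaving out CTR replicate 3 gave 0.30, and leaving out VPA replicate 4 gave 0.0088, so the sign was not stable.

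Cyp1a1, which is induced by aromatic hydrocarbons in many tissues, had only 10, 0 and 7 counts in CTR and 3, 19, 12 and 0 in VPA and was not tested. Cyp1b1, which is known from mesenchymal cells more than from hepatocytes, was at 4.33, 3.35 and 6.58 CPM in CTR and at 9.79, 5.53, 9.63 and 7.55 CPM in VPA. Only VPA replicate 2 was below the highest CTR library. Its log2 fold change was 0.77 (SE 0.67, adjusted p = 0.889 in edgeR). Ahr was at 13.8, 6.505 and 11.51 CPM in CTR and at 0, 19.1, 7.23 and 16.6 CPM in VPA.

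Cyp2e1, the ethanol and acetaminophen oxidase of pericentral hepatocytes (ENSMUSG00000025479, chromosome 7, 140763739 to 140774987), had the largest positive log2 fold change among tested members, 1.43, but with an SE of 1.20 and an adjusted p of 0.880 in edgeR. Its levels were 0, 39.2 and 7.68 CPM in CTR and 69.9, 52.9, 16.1 and 33.2 CPM in VPA. CTR replicate 2 lay within the range of the VPA libraries, and the other CTR libraries lay below all of them. Without CTR replicate 2 the log2 fold change was 3.52, with an unadjusted p of 0.0391 and an adjusted p of 0.652. A share of 18.8% of its last 50-base stretches occurred in other genes.

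Within the Cyp2c subfamily, Cyp2c68 was lower in every VPA library, at 7.88, 8.28 and 11.5 CPM in CTR and at 0, 5.53, 0 and 0 CPM in VPA. Its log2 fold change was −2.50 (SE 1.48), with an unadjusted p of 0.131 and an adjusted p of 0.751 in edgeR. VPA replicate 2 was the only VPA library that counted it. Without that library the unadjusted p was 0.00421 and the adjusted p 0.315 in edgeR. No VPA count then remained, so this p follows from the choice of library and is no support. The log2 fold change ran from −2.66 to −2.10 when any other library was left out. Its near copy Cyp2c67 was counted in every library, at 7.88, 7.10 and 22.5 CPM in CTR and at 11.8, 14.1, 17.7 and 9.06 CPM in VPA, with a log2 fold change of 0.09 (SE 0.58).

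Cyp2c70, the enzyme that makes muricholic acids in mice, was at 10.6, 6.70 and 21.9 CPM in CTR and at 11.8, 0, 0 and 0 CPM in VPA. VPA replicate 1 therefore reached into the CTR range, and the other VPA libraries had no count. The log2 fold change was −2.14 (SE 1.69, adjusted p = 0.864 in edgeR). Without VPA replicate 1 the unadjusted p was 0.00270 and the adjusted p 0.317 in edgeR. No VPA count then remained, so this p follows from the choice of library and is no support. The log2 fold change ran from −2.47 to −1.59 when any other library was left out. The low-count Cyp2c40 had 4, 13 and 6 counts in CTR and 0, 0, 0 and 2 in VPA.

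Within the Cyp2d subfamily, Cyp2d9 and Cyp2d10 were counted in every library. Cyp2d9 was at 14.97, 31.9 and 35.1 CPM in CTR and at 29.4, 29.2, 32.1 and 31.7 CPM in VPA, a log2 fold change of 0.16 (SE 0.34). The neighbouring Cyp2d10 was at 21.3, 10.6 and 39.5 CPM in CTR and at 30.7, 34.1, 34.5 and 27.2 CPM in VPA, a log2 fold change of 0.42 (SE 0.44). In both genes the VPA libraries lay inside the CTR range. Cyp2d26 was at 0, 22.1 and 12.1 CPM in CTR and at 49.0, 11.1, 16.9 and 27.9 CPM in VPA (log2 fold change 1.18, SE 1.16), a value that became 2.13 without CTR replicate 2 and 0.59 without CTR replicate 1. Cyp2d22, a relative of human CYP2D6, was at 7.49, 12.6 and 7.13 CPM in CTR and at 0, 17.8, 5.62 and 12.8 CPM in VPA (log2 fold change 0.01, SE 1.12). The remaining member, Cyp2d40, had 61 counts in CTR replicate 2 alone.

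The Cyp2j genes, which make epoxides of arachidonic acid, differed in sign without a difference that passed the test. Cyp2j6 was at 26.4, 21.5 and 32.3 CPM in CTR and at 7.83, 19.7, 29.7 and 20.4 CPM in VPA (log2 fold change −0.46, SE 0.46). Cyp2j5 was at 11.4, 10.05 and 7.68 CPM in CTR and at 24.8, 17.2, 8.03 and 3.78 CPM in VPA (log2 fold change 0.47, SE 0.69). The groups overlapped in both genes. Cyp2u1, a fatty acid hydroxylase, was at 11.8, 17.0 and 7.13 CPM in CTR and at 20.2, 14.8, 14.5 and 16.6 CPM in VPA (log2 fold change 0.45, SE 0.45).

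Family 4 was held up by Cyp4v3, a fatty acid hydroxylase and the counterpart of human CYP4V2. It was at 37.8, 33.1 and 58.7 CPM in CTR and at 35.3, 29.2, 69.0 and 19.6 CPM in VPA, with the culture number 71 libraries again highest in each group and a log2 fold change of −0.18 (SE 0.44). It overlaps Gm45753 on the same strand, which had 43 counts in all.

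The Cyp4f genes, which hydroxylate leukotrienes and long fatty acids, were unevenly counted. Cyp4f13 was at 28.8, 16.6 and 14.3 CPM in CTR and at 0, 20.3, 17.7 and 0 CPM in VPA (log2 fold change −1.04, SE 1.37). Cyp4f16 was at 9.46, 0 and 15.3 CPM in CTR and at 0, 10.5, 31.3 and 0 CPM in VPA (log2 fold change 0.35, SE 1.92). Cyp4f17 alone was counted in all libraries, at 7.49, 12.8 and 3.29 CPM in CTR and at 16.3, 16.9, 7.23 and 17.4 CPM in VPA. Its log2 fold change was 0.86 (SE 0.63, adjusted p = 0.847 in edgeR), and only VPA replicate 3 fell into the CTR range. Cyp4f14 and Cyp4f15 had no count in most libraries.

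Cyp2t4 had 19 counts in VPA replicate 4 alone. It overlaps Egln2 on the other strand, which had 562 counts in all, and whether strand was used in the counting is not given in the sources used here.

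The genes that serve the P450 enzymes were examined beside them. Por, the reductase that hands them electrons, was at 148, 147 and 108 CPM in CTR and at 209, 214, 194 and 143 CPM in VPA. Only VPA replicate 4 was within the CTR range. The log2 fold change was 0.50 (SE 0.20), with an unadjusted p of 0.0370 and an adjusted p of 0.571 in edgeR. It was the only one of 6 tested electron donors past an unadjusted p of 0.05, beside 3.65% of all tested genes higher at that p, and 3 of the 6 were above 0.

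Haem synthesis and breakdown had 8 of 10 genes tested, 5 above 0 and 3 below, of which 2 were higher at an unadjusted p of 0.05 and none lower, beside the background of 3.65% higher. Alas1, the first and rate-limiting enzyme of haem synthesis, was at 27.2, 30.7 and 32.3 CPM in CTR and at 62.7, 52.6, 32.9 and 44.6 CPM in VPA. All VPA libraries lay above all CTR libraries, VPA replicate 3 only just, and the groups overlapped with library totals alone (25.6 to 34.4 CPM in CTR and 29.8 to 64.6 CPM in VPA). Its log2 fold change was 0.68 (SE 0.27), with an unadjusted p of 0.0364 and an adjusted p of 0.571 in edgeR. Urod, a later enzyme of the pathway whose groups overlapped, was at 54.4, 47.9 and 74.6 CPM in CTR and at 71.2, 93.8, 97.1 and 96.7 CPM in VPA (log2 fold change 0.61, SE 0.22, adjusted p = 0.529 in edgeR).

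**Figure D5:**
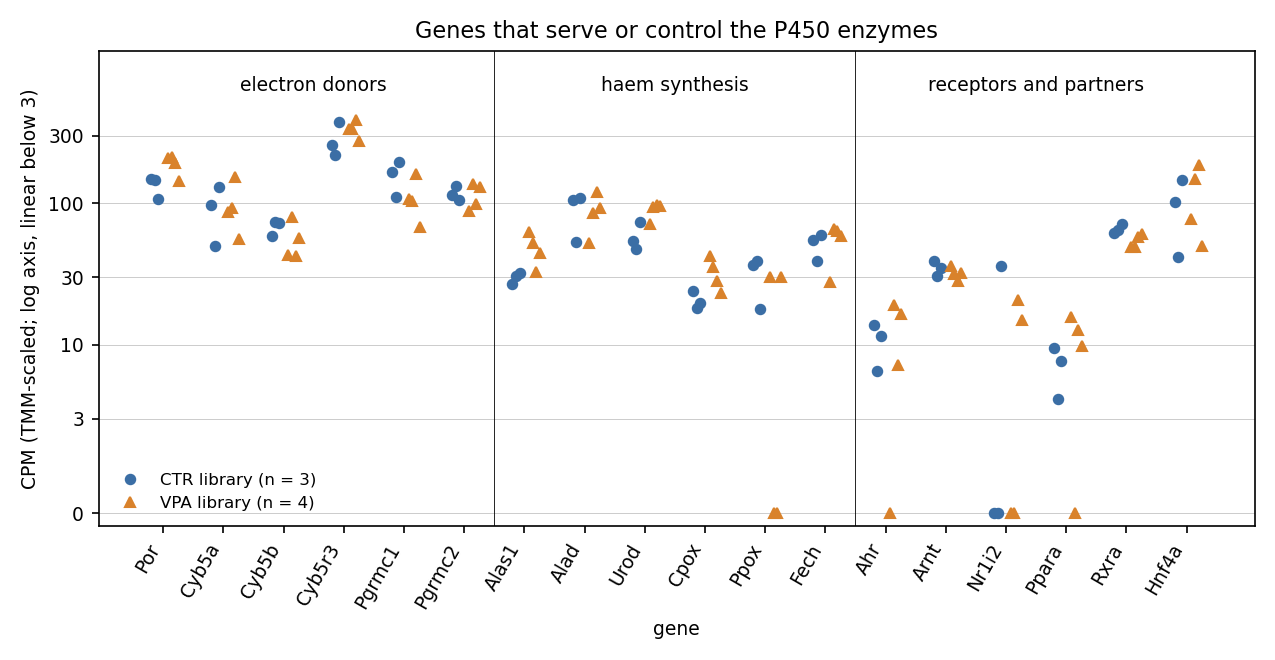
CPM (vertical axis, log scale above 3 and linear below) of electron donors, haem synthesis genes and the receptors and partners of P450 transcription (horizontal axis) in the 3 CTR libraries (circles) and 4 VPA libraries (triangles). Alas1 is higher in all VPA libraries than in any CTR library with TMM scaling but not with library totals alone, while Rxra is lower in all of them and the other receptors and partners overlap between the groups.

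Other targets of the same receptors gave mixed counts. Of 6 receptors and partners tested, 3 were above and 3 below 0 and none passed an unadjusted p of 0.05. Rxra, the shared partner of CAR, PXR and PPARA, was at 62.3, 65.05 and 71.3 CPM in CTR and at 49.0, 49.5, 57.8 and 61.2 CPM in VPA. Its groups did not overlap, with a log2 fold change of −0.29 (SE 0.17, adjusted p = 0.760 in edgeR). PPARA was low, at 9.46, 4.14 and 7.68 CPM in CTR and at 15.7, 0, 12.8 and 9.82 CPM in VPA. Of 10 tested PPARA targets outside the P450 genes, 9 were above 0 (median log2 fold change 0.46), 3 of them at an unadjusted p of 0.05, among them Cpt1a and Pdk4, which act in the use of fatty acids, beside 3.65% of all tested genes higher at that threshold and 45.8% above 0. None of the 3 passed after adjustment in edgeR. Of 2 tested AHR targets and 4 tested CAR and PXR targets outside the family, none passed an unadjusted p of 0.05.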

How the data were processed

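RNA of 3 CTR and 4 VPA slice cultures was made into QuantSeq 3′ FWD libraries without molecular identifiers. Per the labels and the paper's methods, the authors mapped the trimmed reads to GRCm38 with STAR and used StringTie, and they deposited raw whole-number counts per Ensembl gene, 1 column per library. The counting program and its treatment of strand and of reads with several matches are not given in the sources used here. From 55487 genes, symbols came from the GENCODE annotation of GRCm38 (55227 matched). edgeR 4.0.16 in R 4.3.3 tested 10876 genes (TMM, filterByExpr with a minimum count of 10, robust quasi-likelihood, condition only; Benjamini-Hochberg threshold 0.05), after a test on simulated data. The alternatives were DESeq2 1.42.0, limma 3.58.1 voom, other scalings and filters, blocks by replicate number and slice culture, and leaving out each library. Total counts of 1400887 to 4773750 per library limit the precision, and intervals and floors cover counting error only. Promoters are from RefSeq on GRCm38.p6, and 33 of 37 members matched. Named were the 20 most abundant members, those with an unadjusted p under 0.05 or without overlap, and those on the receptor, sex and zonation lists; from the other lists, genes with an unadjusted p under 0.05, the receptors, Por and the most abundant markers. Members outside this rule, and members of low count, were named after their values were seen. The members and lists were chosen with earlier results of these data known. The values of 1 gene outside the family are not reported here.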

Additional observations from a re-analysis of the deposited data

Results flagged for a closer look

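In the 31 members with a VPA count, and in 6 sums and counts over the members, the 4 VPA libraries were checked for 1 library far from the rest by Dixon's criterion at 4 samples, and 13 members met it. The criterion's chance rate of about 0.05 holds for values that vary continuously and not for the 10 members counted in 1 VPA library alone, which meet it by construction, even with 1 read. Of the other 3, Cyp1a2 was highest in VPA replicate 3, at 156 CPM, Cyp4f14 was highest in VPA replicate 1, at 18.3 CPM, and Cyp4f17 was lowest in VPA replicate 3, at 7.23 CPM. Counted in VPA replicate 1 alone were Cyp2c70 at 11.8 CPM and Cyp2f2 at 52.2 CPM. Counted in VPA replicate 2 alone were Cyp2c68 at 5.53 CPM, Cyp3a25 at 4.61 CPM, Cyp4f15 at 6.76 CPM and Cyp2b13 at 0.307 CPM. VPA replicate 3 alone held Cyp2a22 at 0.803 CPM and Cyp4b1 at 2.41 CPM, and VPA replicate 4 alone held Cyp2c40 at 1.51 CPM and Cyp2t4 at 14.3 CPM.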

How the results depend on the processing

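No member passed an adjusted p of 0.05 except under DESeq2, which called 1 lower, Cyp2a5 (adjusted p 0.000374). The number of members higher at an unadjusted p, 0 in edgeR as reported, was 2 among genes with at least 10 counts in every library (Cyp1b1 and Cyp3a11, of 10 members tested, beside 7.79% of the 6652 genes). It ran from 0 to 1 when 1 library was left out. The 1 was Cyp2e1 without CTR replicate 2, of 22 members tested, beside 3.3% of 11429 genes. The number lower at an unadjusted p, 1 as reported, was 2 with limma-voom (Cyp2a5 and Cyp2c68, beside 1088 of 10876 genes). It was 3 without a filter (Cyp2a5, Cyp2r1 and Cyp2d40, beside 4.88% of 26086 genes). With at least 10 counts in every library it was 0, and Cyp2a5 is not tested there. It was 1 to 2 when 1 library was left out, beside 2.83% to 6.22% of all tested genes. The fits with 2 were those without VPA replicates 1, 2 or 3, beside 4.24%, 4.23% and 5.48% of all tested genes. Without VPA replicate 1 or 2, the second member (Cyp2c70 or Cyp2c68) had no VPA count left. Without overlap, members higher fell to 0 with library totals only, and members lower were 4 of 37 without a filter, beside 4.78% of 26086 genes, and 0 of 10 with at least 10 counts in every library, beside 7.08% of 6652 genes. Of the other values, 448 kept their sign and side of the threshold and 23 changed sign. Cyp2c29 was −0.10 with limma-voom and −0.25 to 2.14 when 1 library was left out. Cyp2c67 was −0.00031 with library totals only and −0.21 to 0.79 when 1 library was left out. Cyp2d22 was −0.61 with limma-voom, −0.060 with library totals only, −0.059 without a filter and −0.57 to 0.42 when 1 library was left out. The ranges when 1 library was left out were −1.67 to 0.30 for Cyp1a2, −0.14 to 0.35 for Cyp2d9, −1.12 to 1.13 for Cyp4f16 and −0.62 to 0.080 for Cyp4v3. Leaving out 1 library moved the log2 fold change by over 1.5 times in 20 of the 22 tested members, all except Cyp1b1 and Cyp2a5. Values near 0 meet this ratio easily, and no share over all tested genes was computed. Without a change of sign, the ranges were 0.59 to 2.13 for Cyp2d26, 0.84 to 3.52 for Cyp2e1, −2.21 to −0.43 for Cyp2a12, −1.76 to −0.63 for Cyp4f13, 0.48 to 1.40 for Cyp4f17, 0.054 to 0.97 for Cyp2d10, 0.018 to 0.77 for Cyp2j5, −0.74 to −0.20 for Cyp2j6, 0.17 to 0.78 for Cyp2u1, 0.23 to 0.64 for Cyp3a13 and 0.51 to 1.07 for Cyp3a11. They were −7.38 to −2.10 for Cyp2c68 and −8.05 to −1.59 for Cyp2c70, where the low ends come from fits in which no remaining VPA library holds a count, and such fitted values depend on the model and are no bounds. The cause of these changes was not tested. With library totals only, 12 tested members were above 0 and 10 below.

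Libraries with the same replicate number or slice culture number did not all deviate together from their group means (correlations −0.05, 0.05 and 0.11 by replicate number, and 0.11, 0.03 and 0.05 for cultures 71, 72 and 74). Correlations from so few libraries cannot decide whether the numbers mark pairs. The main test took no pairs, and fits with blocks by these numbers are given here. With a replicate block by slice culture, 2 members were lower at an unadjusted p (Cyp2a5 and Cyp2c70, beside 4.67% of the 10876 genes), Cyp2c29 was −1.41 and Cyp2j5 −0.19. With a replicate block by replicate number, 1 member was lower at an unadjusted p (Cyp2a5, beside 5.63% of the 10876 genes) and Cyp2d22 was −1.07. Of the 3 CTR libraries, only replicate 3 correlated best with its own number. A VPA library without a CTR partner has a block of its own and adds nothing to these fits. By slice culture this was VPA replicate 1, the only VPA library that counted Cyp2c70.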
